A study of Mus musculus with 8 samples.

Results

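The nuclear-encoded genes of the mitochondrial respiratory chain were examined in mouse islets with and without the cannabinoid 1 receptor (CB1R) in beta cells. They were taken as all array probes whose accession belongs to a gene symbol beginning with Nduf (a, b, c, s or v and a number), Sdha to Sdhd, Uqcr, Cox4 to Cox8 or Atp5, with the brightest probe standing for each gene. This gave 117 of 55681 probes and 88 of the 21154 genes on the array. They are 35 genes of complex I, 4 of complex II, 8 of complex III, 18 of complex IV and 17 of complex V, with 4 assembly factors of complex II (*Sdhaf1* to *Sdhaf4*) and 2 genes kept apart (*Cox7a2l* and *Ndufa4l2*). Of the 88, 85 could be compared, and each of these was well above background on all 8 arrays.

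RNA from islets of male C57BL/6 mice on a standard diet was hybridised to 1-colour Agilent arrays. The control group was 4 β-CB1R+/+ mice (*Cnr1* flox/flox littermates without the MIP-Cre/ERT transgene), and the knockout group was 3 β-CB1R-/- mice (*Cnr1* flox/flox with MIP-Cre/ERT, in which the insulin promoter drives a tamoxifen-dependent Cre). Both groups received tamoxifen as young adults, and the age of the mice whose islets were put on arrays is not singled out in the sources used here (islets for other assays were isolated a month after tamoxifen). The second β-CB1R-/- mouse was run on 2 repeat arrays, which were averaged. The sample labels name only CB1 WT and CB1 KO and their protocol text speaks of the global knockout, whereas the title of the series names the beta cell knockout. As the study's methods describe them, beta cell knockout and control differ in the Cre transgene as well as in *Cnr1*, which would not hold for a global knockout, and all β-CB1R+/+ arrays lay on one side of a single slide, so that genotype, any transgene difference and array position cannot be told apart.

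The respiratory chain passes electrons from NADH through complex I, or from succinate through complex II, by way of ubiquinone to complex III, and from there by cytochrome *c* to complex IV, where oxygen is reduced. The proton gradient built by complexes I, III and IV drives ATP synthesis by complex V. In beta cells the ATP made this way closes ATP-sensitive potassium channels, which couples glucose metabolism to insulin secretion. Most subunits are encoded in the nucleus, and a few catalytic ones in mitochondrial DNA. The study measured oxygen consumption in freshly isolated β-CB1R+/+ and β-CB1R-/- islets and reported a smaller rise with glucose in the latter. It does not say that the same islets were put on arrays. The question addressed here is whether the transcripts of the chain differed between the genotypes.

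Intensities are on the log2 scale with the 75th percentile of the same array at 0, and a log2 fold change is the β-CB1R-/- mean minus the β-CB1R+/+ mean on that scale. Spots on the arrays are not calibrated against each other, so levels are compared between mice for one probe and never between probes. Between 33308 and 39989 probes per array were well above background, and the number of arrays limits the precision. The targeted gene *Cnr1* lay between -1.11 and -0.015 in the β-CB1R+/+ mice and between -3.13 and -2.28 in the β-CB1R-/- mice, a log2 fold change of -1.97 (standard error 0.33, limma adjusted p = 0.193). The islets held acinar tissue: all 13 of the 14 acinar markers with a probe were compared, and their summed intensity was 10187 to 19261 times the 75th percentile in β-CB1R+/+ mice and 10329 to 21489 times in β-CB1R-/- mice. The 10 beta cell markers were all present, with sums of 3978 to 5240.1 and 3294 to 4719. In β-CB1R-/- islets 9 of the 10 beta cell markers were lower and 12 of the 13 acinar markers higher, none at an unadjusted limma p under 0.05. Of 5 alpha cell markers 4 were lower, 2 of them at that level, the 1 T cell marker compared was lower at that level, and 5 of 5 macrophage markers were higher, none at that level, where 3.59% of all probes reached it. No marker of these lists had an adjusted p under 0.05, and their part in the values below was not tested. In such bulk samples, fewer cells of a type and less RNA per cell cannot be told apart.

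Promoters of members are shown first, since the regulators known to act on this gene set (NRF1, the ETS factor GABP, YY1, the oestrogen-related receptors and SP1) recognise short motifs near the start of transcription. The RefSeq promoter table (GRCm38.p6, 250 bases before to 50 after the start) matched 72 of the 88 genes. The motifs searched on either strand were GCATGCGC for NRF1, CCGGAAGT for ETS factors, AAGATGGCG for YY1, TCAAGGTCA for oestrogen-related receptors and GGGCGG for SP1. Stretches of 60 bases upstream of the start are printed 5′ to 3′ on the gene's strand, with motif letters of either orientation in capitals, to show one example for complexes I, II and III, the ubiquitous isoform *Cox6a1*, the c-subunit genes *Atp5g2* and *Atp5g3* and *Atp5k* of complex V, and the muscle and ubiquitous isoforms *Cox7a1* and *Cox7a2*.
Ndufa11 (chr17:56717672-56717731, + strand): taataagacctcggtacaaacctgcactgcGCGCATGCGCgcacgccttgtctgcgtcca
Sdhb (chr4:140961181-140961240, + strand): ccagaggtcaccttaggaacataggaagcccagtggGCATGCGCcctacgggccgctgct
Uqcr11 (chr10:80406852-80406911, - strand): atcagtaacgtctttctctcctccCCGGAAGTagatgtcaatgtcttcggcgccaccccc
Cox6a1 (chr5:115349079-115349138, - strand): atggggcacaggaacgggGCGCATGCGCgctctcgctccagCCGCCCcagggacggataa
Atp5g2 (chr15:102671068-102671127, - strand): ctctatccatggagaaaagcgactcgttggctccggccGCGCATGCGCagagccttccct
Atp5k (chr5:108434420-108434479, - strand): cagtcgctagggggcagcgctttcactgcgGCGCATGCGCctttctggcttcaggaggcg
Atp5g3 (chr2:73911347-73911406, - strand): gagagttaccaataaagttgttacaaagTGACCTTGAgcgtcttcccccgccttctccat
Cox7a1 (chr7:30184111-30184170, + strand): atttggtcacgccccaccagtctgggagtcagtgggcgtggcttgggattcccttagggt
Cox7a2 (chr9:79759854-79759913, - strand): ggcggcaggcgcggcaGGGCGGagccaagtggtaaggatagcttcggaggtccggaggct

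The NRF1 motif stood in 10 of the 72 member promoters (13.9%), against 2.8% of the 27025 promoters in the table. In *Ndufa11*, *Cox6a1*, *Atp5g2* and *Atp5k* both orientations overlapped in one palindromic site, shown as 10 capitals. The YY1 motif was held by 6 members (8.33%) against 1.49% of all promoters, and 5 of those 6 were complex I genes. In all 6 it lay after the start of transcription, outside the upstream stretches printed above. The ETS motif was held by 5 members (6.94% against 4%), the oestrogen-related receptor motif by 2, *Atp5g3* and *Sdhd* (2.78% against 0.407%), and the SP1 motif by 32 (44.4% against 35.9%). None of the 5 motifs was held by 25 members (34.7% against 60.6%), among them *Atp5g1*. Member promoters were richer in G and C than all promoters, with median contents of 58% and 52.7%, and the part of base composition in these shares was not tested. A match is a description of the letters in the window and does not show binding.

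No respiratory chain gene passed the test between the genotypes. None of the 85 genes had an adjusted p under 0.05 (limma with Benjamini-Hochberg adjustment over all 39160 probes compared), where 0.11% of all probes did, and the lowest adjusted p among the 85 was 0.999. None had an unadjusted p under 0.05 either, against 3.59% of all probes. In 1 of the 85 genes, *Uqcrc2*, the mice of the 2 genotypes did not overlap on the brightest probe, against 4.12% of all probes. They were also separate on the dimmer probe of *Atp5c1* (complex V), with a log2 fold change of 0.24 (standard error 0.18). On the brightest probe of *Atp5c1* they overlapped, with 0.070 (standard error 0.18). The lowest unadjusted p among the 85 genes was 0.17. The median log2 fold change over the 85 genes was 0.037, with 52 higher and 33 lower in β-CB1R-/- islets, beside a median of -0.039 over the 16955 genes compared, 7511 of them higher. A p above the threshold does not show equality, and the intervals give the sizes that remain possible: the 95% interval of the difference lay within 2-fold in either direction for 79 of the 85 genes, against 11344 of the 16955, and within 1.5-fold for 51. In limma the spread of each gene is drawn towards that of all probes, which widens the intervals of the steadier genes and raises their p-values.

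**Figure D1:**
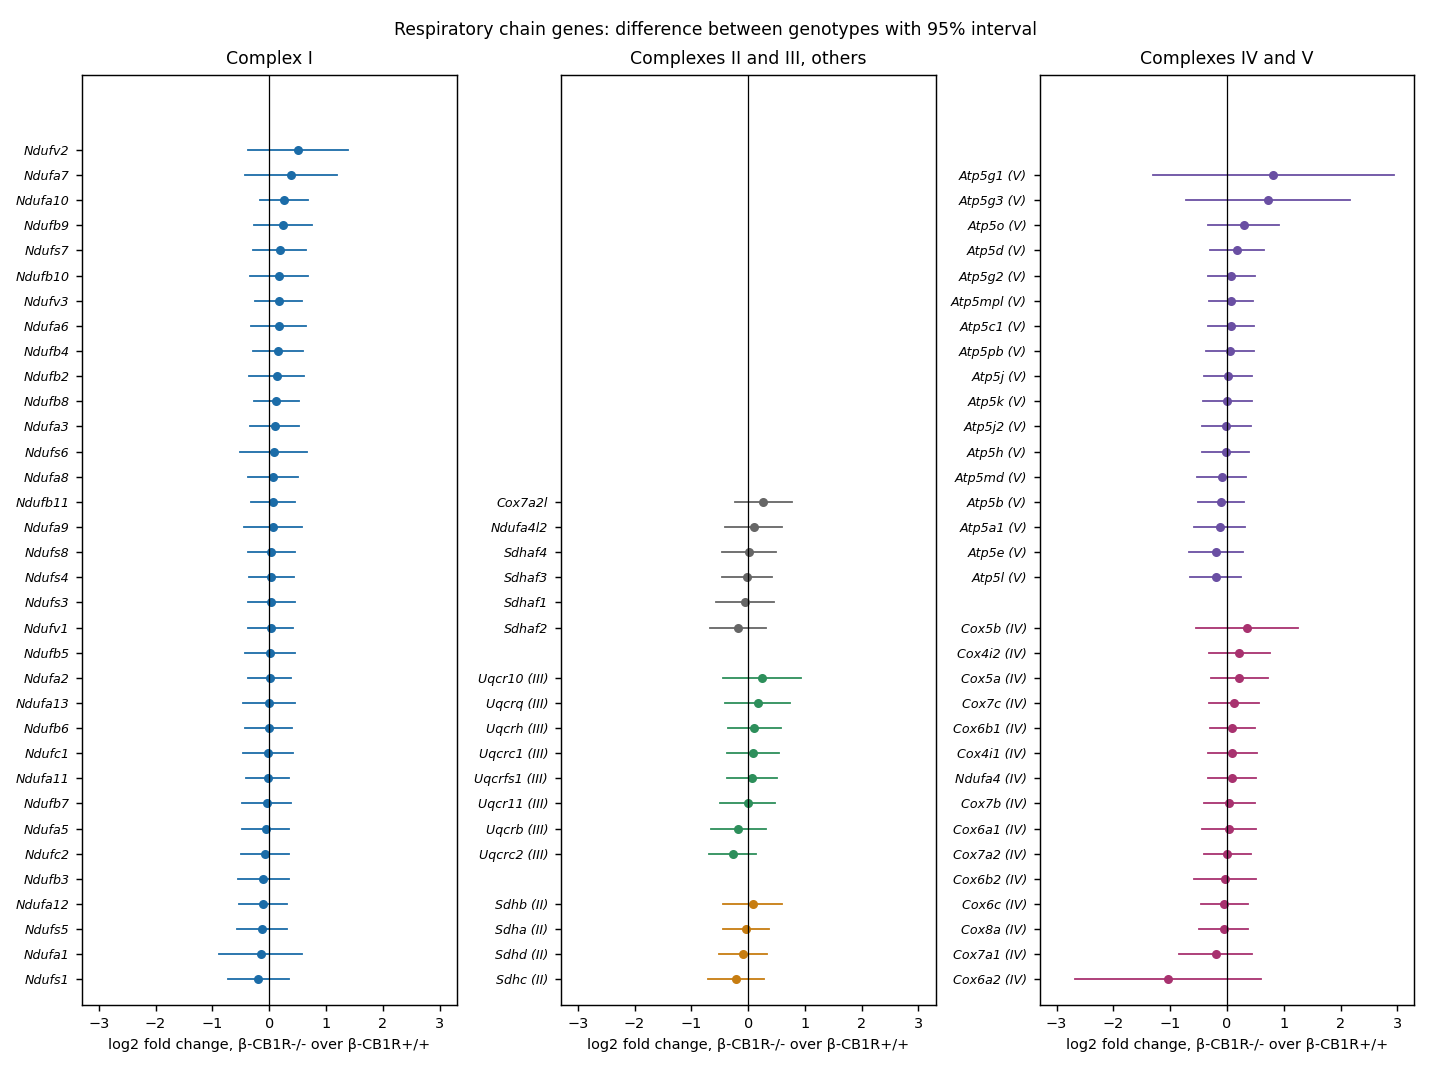
Log2 fold change of β-CB1R-/- over β-CB1R+/+ islets (x axis) for 84 of the 85 genes (y axis), with the 95% interval from limma as a line, in panels by complex. Every interval includes 0, and the widest belong to *Cox6a2*, *Atp5g1*, *Atp5g3*, *Cox5b* and *Ndufv2*.

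The direction of the median rested on 1 mouse. Without β-CB1R-/- replicate 1 it was -0.02, with 36 genes higher and 49 lower. Without each of the other 6 mice it stayed above 0, from 0.022 (without β-CB1R+/+ replicate 3) to 0.074 (without β-CB1R-/- replicate 2, 63 higher and 22 lower). Under Z scores per array it was 0.0034, with 44 higher and 41 lower. The medians of the 85 genes in single mice had an SD within genotype, pooled over the 2 genotypes, of 0.069.

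Complex I oxidises NADH and is the largest of the complexes. All 35 of its genes were compared, with 23 higher and 12 lower in β-CB1R-/- islets and a median log2 fold change of 0.037 (-0.020 without β-CB1R-/- replicate 1). Its 3 lowest unadjusted p-values included those of *Ndufa10* and *Ndufv2*. *Ndufa10*, an accessory subunit, had 1.84, 1.62, 1.66 and 1.93 in the β-CB1R+/+ mice and 2.13, 2.06 and 1.89 in the β-CB1R-/- mice. The lowest β-CB1R-/- mouse lay below the highest β-CB1R+/+ mouse, and the log2 fold change was 0.26 (standard error 0.18, limma unadjusted p = 0.192; exact permutation p = 0.114).

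*Ndufv2*, an iron-sulphur subunit of the part that oxidises NADH, had 4.11, 2.82, 4.35 and 4.34 in β-CB1R+/+ mice and 4.30, 4.46 and 4.49 in β-CB1R-/- mice. One β-CB1R+/+ mouse, replicate 2, was far below the other 6, and the log2 fold change of 0.51 (standard error 0.38, limma unadjusted p = 0.223; exact permutation p = 0.286) was 0.14 (standard error 0.20) with that spot left out. The spot lies in column 2 of the array, where this array reads irregularly (described further on). Most complex I genes were steadier: *Ndufa2*, *Ndufa11* and *Ndufb11* had SDs within genotype of 0.041, 0.050 and 0.050. Among them *Ndufb11*, a membrane-arm subunit, differed by 0.068 with a 95% interval of -0.31 to 0.45. Its standard error of 0.17 exceeded its SD, since limma draws the spread of a gene towards that of all probes.

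Complex II (succinate dehydrogenase) is the one complex of the chain that is also an enzyme of the TCA cycle, and all of its subunits are nuclear. Of its 4 genes 1 was higher and 3 were lower, with a median log2 fold change of -0.068 (-0.14 without β-CB1R-/- replicate 3 and -0.0088 without β-CB1R+/+ replicate 2). *Sdha*, the flavoprotein that binds succinate, had 4.66, 4.87, 4.68 and 4.65 in β-CB1R+/+ mice and 4.59, 4.60 and 4.82 in β-CB1R-/- mice, a log2 fold change of -0.041 (standard error 0.18). *Sdhb*, the iron-sulphur subunit, had 5.73, 5.41, 5.39 and 5.69 against 6.01, 5.56 and 5.34, which was 0.079 (standard error 0.23). The groups overlapped for both genes. The membrane anchors *Sdhc* and *Sdhd* had log2 fold changes of -0.22 (standard error 0.21) and -0.095 (standard error 0.18), and their mice also overlapped, between 3.12 and 3.83 for *Sdhc* and between 4.39 and 4.78 for *Sdhd*. With a mouse left out *Sdhc* ran from -0.34 (without β-CB1R-/- replicate 3) to -0.10 (without β-CB1R-/- replicate 2) and *Sdhd* from -0.16 (without β-CB1R-/- replicate 3) to -0.028 (without β-CB1R+/+ replicate 2). The assembly factors *Sdhaf1* to *Sdhaf4*, which help to assemble complex II, ranged from -0.18 to 0.017.

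Complex III (cytochrome *bc*1) held the one gene with separate groups on its brightest probe. Of its 8 genes 5 were higher and 3 lower, with a median log2 fold change of 0.075 (-0.031 without β-CB1R-/- replicate 1). *Uqcrc2*, which encodes core protein 2 of the complex, had 4.75, 4.58, 4.53 and 4.56 in the β-CB1R+/+ mice and 4.52, 4.17 and 4.31 in the β-CB1R-/- mice. The highest β-CB1R-/- mouse (4.52) was just under the lowest β-CB1R+/+ mouse (4.53). The log2 fold change was -0.28 (standard error 0.18, 95% interval -0.70 to 0.15, limma unadjusted p = 0.17), and the exact permutation p was 0.0286, the smallest that 4 mice against 3 allow. The value is firmer than most within each array, since the probe had 9 or 10 usable spots per array, with SDs between spots of 0.029 to 0.075. The repeat arrays of β-CB1R-/- replicate 2 gave 4.14 and 4.19.

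*Uqcrc1*, which encodes the partner core protein, had no such order of mice: its values were 2.50, 2.66, 2.71 and 2.73 in β-CB1R+/+ mice and 2.99, 2.44 and 2.77 in β-CB1R-/- mice, a log2 fold change of 0.081 (standard error 0.20). The difference between the 2 genes was not tested. *Uqcrb*, a small subunit near the ubiquinone site, had 5.37, 5.76, 5.31 and 5.40 against 5.43, 5.02 and 5.43, with overlapping groups and a log2 fold change of -0.17 (standard error 0.21, limma unadjusted p = 0.439; -0.24 without β-CB1R-/- replicate 3 and -0.035 without β-CB1R-/- replicate 2). Its 3 probes gave -0.17 to -0.091. On its brightest probe *Uqcr10*, another small subunit, differed by 0.24 on the log2 scale (standard error 0.30), where β-CB1R+/+ replicate 1 read 4.07 and the other 6 mice 4.93 to 5.20. That spot lies in column 160, among the edge columns described further on, and without it the log2 fold change was -0.015. Its other 2 probes showed no such gap in that mouse, which had 4.82 among 4.62 to 4.82 on one. On the other it was the lowest, with 3.07 among 3.07 to 3.48. Over the 3 probes of *Uqcr10* the log2 fold change ran from -0.094 to 0.24.

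Complex IV (cytochrome *c* oxidase) has nuclear subunits around a catalytic core encoded in mitochondrial DNA, and several of them exist as tissue isoforms. Of its 18 genes 15 were compared, with 10 higher and 5 lower and a median log2 fold change of 0.038 (-0.014 without β-CB1R+/+ replicate 2, and -0.0050 to -0.00043 under quantile normalisation, Z scores and the authors' scores). *Cox5a*, a subunit on the matrix side, had 5.42, 4.91, 4.98 and 5.25 in β-CB1R+/+ mice and 5.56, 5.42 and 5.09 in β-CB1R-/- mice. These overlapped, with a log2 fold change of 0.22 (standard error 0.22, limma unadjusted p = 0.351; 0.12 without β-CB1R-/- replicate 1 and 0.35 without β-CB1R-/- replicate 3). *Cox5b*, its neighbour in the complex, had 3.49, 5.17, 4.90 and 4.80 against 5.05, 4.83 and 4.94. Only β-CB1R+/+ replicate 1 was low, and without that spot the log2 fold change fell from 0.35 (standard error 0.39) to -0.016 (standard error 0.20).

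The isoforms known from most tissues were well above background on all arrays, and none passed the test. *Cox4i1*, the regulatory subunit that binds ATP, had 6.15, 6.03, 6.17 and 6.19 in β-CB1R+/+ mice and 6.40, 6.32 and 5.96 in β-CB1R-/- mice, a log2 fold change of 0.092 with a 95% interval of -0.34 to 0.53. For *Cox6a1*, *Cox6b1*, *Cox7a2*, *Cox7b*, *Cox8a* and *Ndufa4* (a subunit of complex IV despite its name) the log2 fold changes were 0.035, 0.094, 0.0068, 0.038, -0.058 and 0.089. None of these exceeded its standard error, which were 0.17 to 0.21, and the signs of *Cox4i1*, *Cox6a1*, *Cox7a2* and *Cox7b* turned under other scalings. *Cox7a2l*, a relative of *Cox7a2* that joins complexes III and IV into supercomplexes, had 6.43, 7.04, 6.87 and 6.79 against 6.85, 7.24 and 7.07, a log2 fold change of 0.27 (standard error 0.21), and its 3 probes gave 0.27 to 0.39. With a mouse left out it ran from 0.15 (without β-CB1R+/+ replicate 1) to 0.37 (without β-CB1R-/- replicate 1).

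Isoforms named for other tissues were detected to different degrees. *Cox4i2*, known from lung and from hypoxic cells, was well above background on all 8 arrays, with 0.017, -0.50, -0.12 and -0.13 in β-CB1R+/+ mice and 0.21, 0.24 and -0.36 in β-CB1R-/- mice. *Cox7a1*, the heart and muscle isoform, had 0.21, 0.56, 0.42 and 0.0078 against 0.68, -0.23 and -0.15, and *Cox6b2*, known from testis, had -1.51, -1.98, -1.42 and -1.41 against -1.30, -1.68 and -1.89. The groups overlapped for all 3, with log2 fold changes of 0.22, -0.20 and -0.041. With a mouse left out *Cox4i2* ran from 0.11 (without β-CB1R-/- replicate 2) to 0.41 (without β-CB1R-/- replicate 3) and *Cox7a1* from -0.49 (without β-CB1R-/- replicate 1) to -0.037 (without β-CB1R-/- replicate 2). The testis isoforms *Cox7b2* and *Cox8c* were well above background on no array, and *Cox8b*, the heart and muscle isoform, on 1 of the 4 arrays of each genotype, so these 3 genes were not compared. *Ndufa4l2*, a relative of *Ndufa4* known to be induced by hypoxia, differed by 0.098 on the log2 scale (standard error 0.22), with β-CB1R+/+ replicate 4 at 0.27 and the other 6 mice between -0.39 and -0.063.

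*Cox6a2*, the heart and skeletal muscle isoform of subunit 6a, was the most variable gene whose spread lay in the β-CB1R-/- group. It had 5.32, 6.63, 5.60 and 4.89 in β-CB1R+/+ mice and 4.86, 2.88 and 5.96 in β-CB1R-/- mice. β-CB1R-/- replicate 2 was low on both of its arrays, at 2.83 and 2.94, while the other 2 β-CB1R-/- mice lay within or beside the β-CB1R+/+ range. The log2 fold change was -1.04 (standard error 0.71, 95% interval -2.68 to 0.60, limma unadjusted p = 0.18; exact permutation p = 0.314). Without β-CB1R-/- replicate 2 it was -0.20. Without β-CB1R-/- replicate 3 it was -1.73, with an unadjusted limma p of 0.0350 and an adjusted p of 0.507. Of 5 markers of muscle or brown fat, *Mb* and *Myh1* were well above background on no array, *Ckm* on 1, *Ucp1* on 7 and *Acta1* on all 8, and the sum of the 5 was 0.619 to 0.773 times the 75th percentile in β-CB1R+/+ mice and 0.639 to 0.890 times in β-CB1R-/- mice. The part of muscle cells in the values of *Cox6a2* was not tested.

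The 7 mice fell in the same order for *Cox6a2* as for the median of the 10 beta cell markers. From the highest to the lowest these were β-CB1R+/+ replicate 2, β-CB1R-/- replicate 3, β-CB1R+/+ replicates 3, 1 and 4, and β-CB1R-/- replicates 1 and 2. The deviations of the beta cell list from its mean were 0.43, 0.23, 0.19, -0.011, -0.10, -0.33 and -0.43 in that order. The acinar list, in the same order of mice, deviated by -0.84, -0.63, 0.10, 0.37, 0.087, 0.47 and 0.41. The highest value, that of β-CB1R+/+ replicate 2, was read in an edge column of its array. This order was noticed after the values were seen, and the part of cell composition in the values of *Cox6a2* was not tested.

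**Figure D2:**
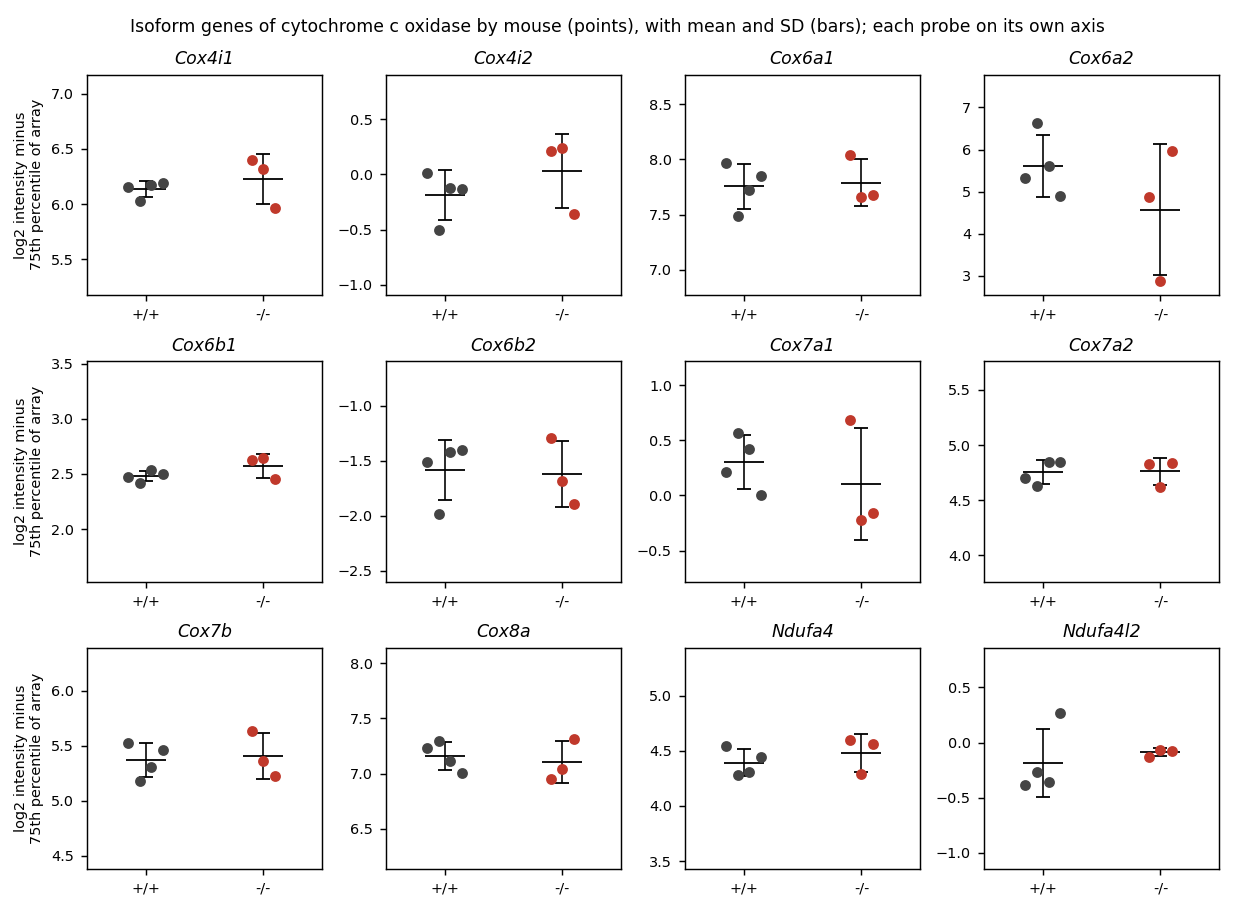
Log2 intensity relative to the 75th percentile (y axis) of 12 isoform genes in each of 4 β-CB1R+/+ mice (grey) and 3 β-CB1R-/- mice (red), with mean and SD as bars and a separate axis for each probe. The points of the 2 groups overlap in every panel, and the lowest point for *Cox6a2* is β-CB1R-/- replicate 2 at 2.88.

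Complex V (ATP synthase) had 10 of its 17 genes higher and 7 lower, with a median log2 fold change of 0.020. That sign was not stable: the median was -0.086 without β-CB1R-/- replicate 1, -0.015 without β-CB1R+/+ replicate 2, and -0.025 to -0.0022 under normexp, quantile normalisation, Z scores, the authors' scores and scaling to the chain. *Atp5o*, which encodes the stalk subunit OSCP, had 3.74, 3.07, 3.41 and 3.61 in β-CB1R+/+ mice and 4.14, 3.83 and 3.29 in β-CB1R-/- mice, a log2 fold change of 0.29 (standard error 0.27, limma unadjusted p = 0.308), which was 0.10 without β-CB1R-/- replicate 1 and 0.53 without β-CB1R-/- replicate 3. *Atp5l*, a membrane subunit, had 6.67, 6.99, 6.76 and 6.71 against 6.59, 6.37 and 6.77, which was -0.20 (standard error 0.19, limma unadjusted p = 0.329; -0.30 without β-CB1R-/- replicate 3 and -0.097 without β-CB1R-/- replicate 2). The groups overlapped for both, and the 5 probes for *Atp5l* agreed within -0.21 to -0.16. *Atp5b*, which encodes the catalytic β subunit, differed by -0.098 on the log2 scale (standard error 0.18).

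*Atp5g1*, *Atp5g2* and *Atp5g3* encode the same mature c subunit of the rotor from separate genes. *Atp5g1* had 6.37, 2.33, 6.00 and 6.04 in β-CB1R+/+ mice and 6.30, 5.70 and 6.00 in β-CB1R-/- mice, and *Atp5g3* had 6.21, 3.54, 6.00 and 6.11 against 6.18, 6.27 and 6.11. In both genes β-CB1R+/+ replicate 2 alone was low, which gave the largest fold changes of the complex, 0.82 (standard error 0.92) and 0.72 (standard error 0.62, limma unadjusted p = 0.282). With those spots left out they were -0.13 (standard error 0.24) and 0.081 (standard error 0.19). The 2 probes of *Atp5g2* lie outside the edge columns. On the brighter one that mouse had 6.84 and the other 6 had 6.50 to 6.80, with a log2 fold change of 0.071 (standard error 0.18). On the other probe that mouse was the lowest, at 5.89 against 6.00 to 6.45, with a log2 fold change of 0.25 (standard error 0.19).

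The large single-mouse deviations of the chain lay at particular columns of particular arrays. Of 680 values (85 genes on 8 arrays), 8 were more than 1 from the gene's median on the log2 scale. Of these, 6 were in the first 20 columns of the array of β-CB1R+/+ replicate 2 (*Atp5g1*, *Atp5g3*, *Cox6a2*, *Ndufa7* and *Ndufv2*) or in the last 10 columns of that of β-CB1R+/+ replicate 1 (*Cox5b*), which together hold 18 values. The other 2 were *Cox6a2* on the repeat arrays of β-CB1R-/- replicate 2. In the first 20 columns of the array of β-CB1R+/+ replicate 2 the scanner software's within-array correction was 1.05 on the log2 scale in the median bright spot, against 0.056 to 0.12 on the other 7 arrays. There, 29.4% of bright spots were more than 1 from their median over the arrays, against 1.45% to 4.17%. In the columns between the first 20 and the last 10 that array also had the highest share, 6.39% against 0.684% to 4.02%. In the last 10 columns of the array of β-CB1R+/+ replicate 1 the correction was 0.36, against 0.047 to 0.099 on the others, and the share was 9.93%, against 0.348% to 6.60%. None of these member spots had been marked as irregular by the scanner software.

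**Figure D3:**
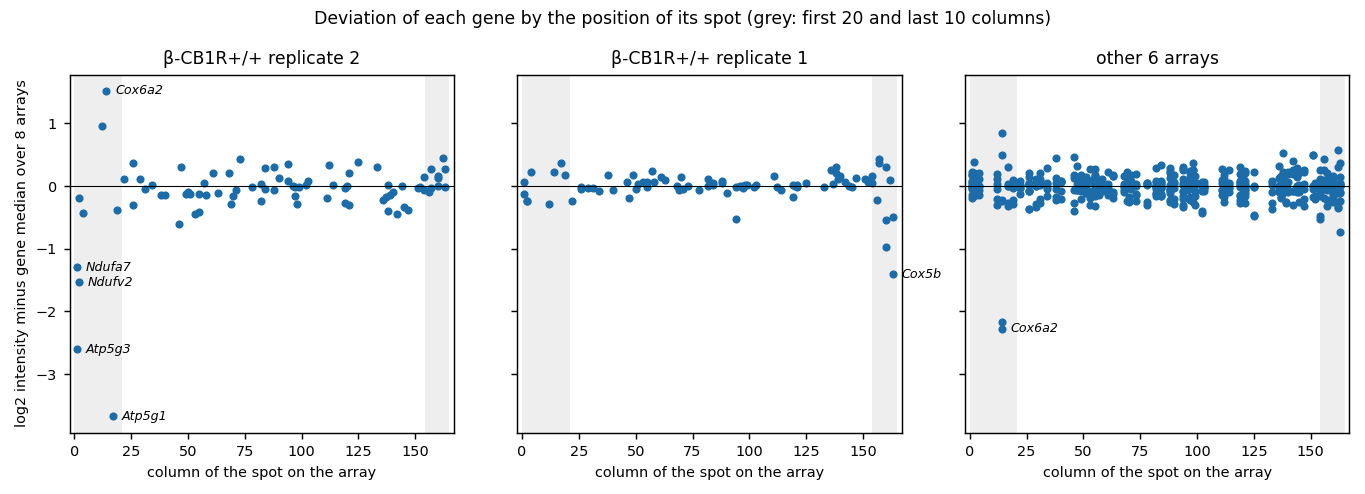
Deviation of each gene's log2 intensity from its median over the 8 arrays (y axis) against the column of its spot (x axis), for β-CB1R+/+ replicate 2, β-CB1R+/+ replicate 1 and the other 6 arrays together; *Uqcrc2*, which has 10 spots, is not drawn. The 6 largest deviations on the first 2 arrays fall in the grey edge columns, and the 2 low points on the other arrays are *Cox6a2* on the repeat arrays of β-CB1R-/- replicate 2.

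With the spots of these columns left out on those 2 arrays, an alternative chosen after the data were seen, 18 genes were fitted on 3 β-CB1R+/+ mice in place of 4. The median log2 fold change over the 85 genes was then 0.020, with 48 higher and 37 lower, and no gene passed the threshold. The values other than *Cox6a2* (-0.70, standard error 0.72) ran from -0.28 to 0.29, and the 95% interval lay within 2-fold for 84 of the 85 genes in place of 79.

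The chain was among the steadier gene sets in these islets. The median SD between mice of one genotype was 0.165 over the 85 genes, 0.171 over 78 genes of the mitochondrial ribosome, 0.224 over 19 TCA cycle genes, 0.325 over 80 genes of the cytosolic ribosome and 0.329 over all 16955 genes. The probes of these lists differ in brightness, with median log2 intensities of 5.03, 2.69, 3.67, 7.05 and -0.036, and the part of brightness in the spread was not tested. Between the repeat arrays of one mouse the 85 genes differed with an SD of 0.10, and between different mice of one genotype with SDs of 0.16 to 0.69, which include the edge columns of the arrays of β-CB1R+/+ replicates 1 and 2. An SD over 0.5 was found in 6 of the 85 genes (7.06%, against 33.2% of all probes), and in none of the 67 genes whose spots lie outside both edge bands.

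The mice differed in the chain as a whole by small amounts that did not follow genotype. The median deviation of the 85 genes from their means over the 7 mice was 0.027, -0.054, -0.019 and 0.017 in the β-CB1R+/+ mice and 0.14, -0.059 and 0.038 in the β-CB1R-/- mice. β-CB1R-/- replicate 1 was the highest, with 64 of 85 genes above their mean, and β-CB1R-/- replicate 2 the lowest, with 30 of 85, so the most distant mice belonged to one genotype. Complexes I, III, IV and V were all highest in β-CB1R-/- replicate 1 (0.11, 0.18, 0.25 and 0.16), whereas complex II, with only 4 genes, was at -0.096 in that mouse and highest in β-CB1R+/+ replicate 2 (0.18). The cytosolic ribosome list moved by more, to 0.39 and 0.31 in β-CB1R-/- replicates 1 and 2 and to -0.41 and -0.34 in β-CB1R+/+ replicate 2 and β-CB1R-/- replicate 3. The acinar list was high and low in those same mice, at 0.47, 0.41, -0.84 and -0.63, and the chain was at 0.14, -0.059, -0.054 and 0.038. With the acinar list as a covariate the median log2 fold change of the chain was 0.020 in place of 0.037, and that of complex IV 0.0021 in place of 0.038. The highest of a single gene was 0.50 in place of 0.82. The 0.82 is that of *Atp5g1*, which rested on an edge spot of β-CB1R+/+ replicate 2, the mouse lowest in the acinar list. Spot position and acinar content cannot be told apart in that change, and the part of acinar tissue was not tested.

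**Figure D4:**
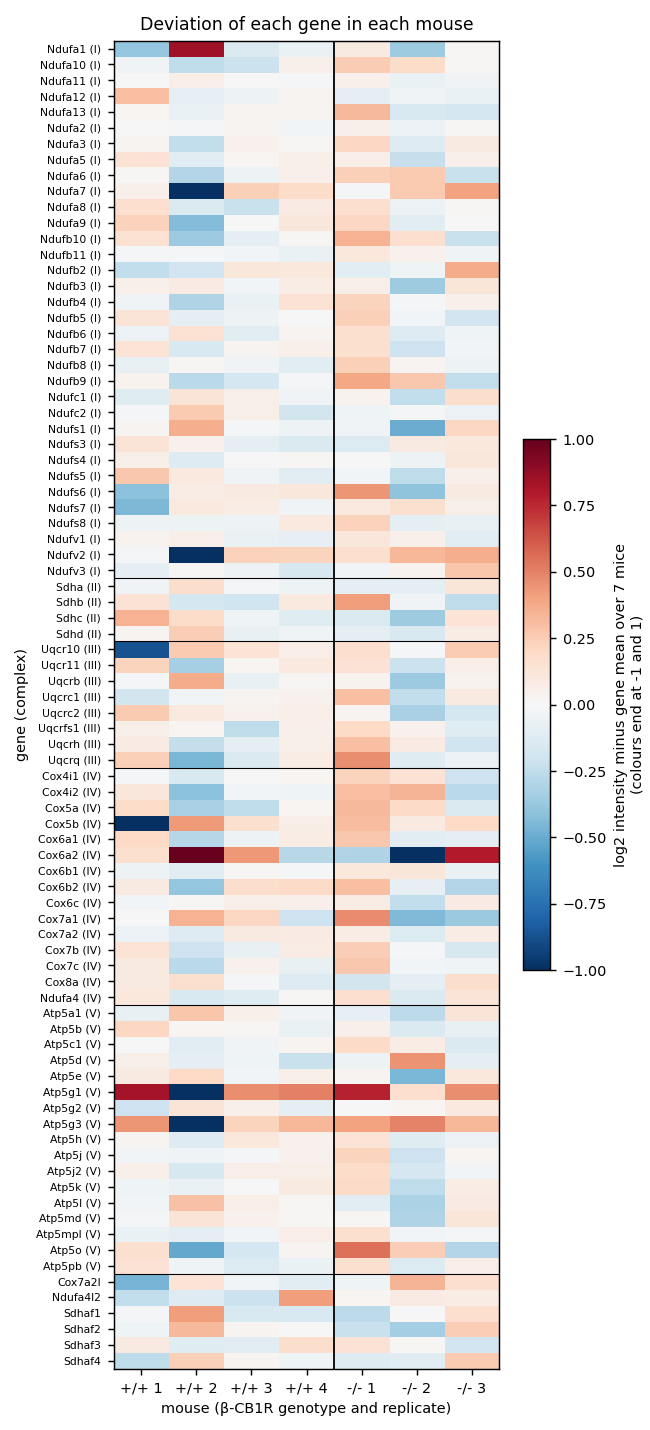
Log2 intensity of 84 of the 85 genes (rows, by complex) in each of the 7 mice (columns) minus the gene's mean over the mice, with colours ending at -1 and 1. Most cells are pale, β-CB1R-/- replicate 1 is mostly above and replicate 2 mostly below the means, and the dark cells are single genes in β-CB1R+/+ replicates 1 and 2 and *Cox6a2* in β-CB1R-/- replicate 2.

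**Figure D5:**
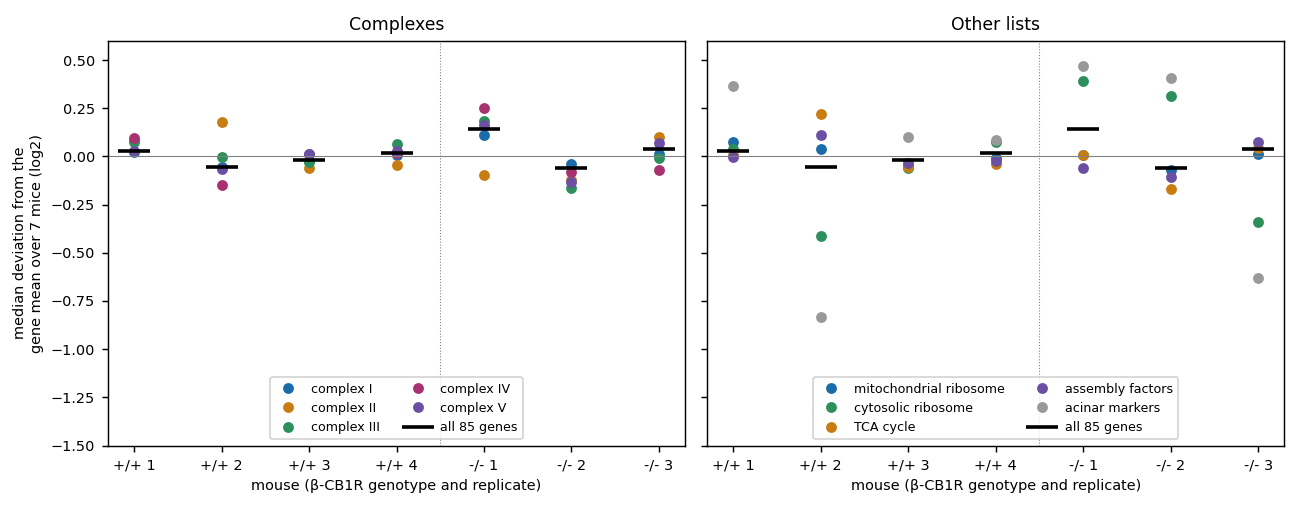
Median deviation from the gene means (y axis, log2) in each mouse (x axis) for the 5 complexes (left) and for other lists (right), with all 85 genes as black bars. The black bars stay between -0.059 and 0.14, while the acinar markers range from -0.84 to 0.47.

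Genes that build, feed and regulate the chain were also without calls, and their counts are given from lists chosen beside the chain. Of 53 assembly factors of the complexes 47 were compared, 15 higher and 32 lower, with a median log2 fold change of -0.066 and none at an unadjusted p under 0.05. They include *Sdhaf1* to *Sdhaf4*, which are also counted among the 85 genes above. *Tmem126b*, needed for the membrane arm of complex I, and *Uqcc3*, needed for complex III, had separate groups, 2 of 47 beside 4.12% of all probes. *Tmem126b* had -0.46, -0.16, -0.14 and -0.29 in β-CB1R+/+ mice and -0.034, 0.23 and 0.012 in β-CB1R-/- mice, a log2 fold change of 0.33 (standard error 0.18). *Uqcc3* had 3.61, 3.39, 3.46 and 3.59 against 3.74, 3.88 and 3.68, which was 0.25 (standard error 0.17). Both had a limma adjusted p of 0.999. The lowest p for factors of complex IV was that of *Cox20*, with -0.30 (standard error 0.22), and for those of complex V that of *Tmem70*, with 0.056 (standard error 0.18).

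Among 22 genes of ubiquinone synthesis, cytochrome *c* and ADP/ATP exchange, 10 were higher and 12 lower, with none at an unadjusted p under 0.05. The lowest p was that of *Coq10b*, a ubiquinone-binding protein, with -0.54 (standard error 0.25, limma unadjusted p = 0.0584 and adjusted p = 0.999), with 0.23, 0.78, 0.17 and 0.14 against -0.19, -0.53 and 0.082. Separate groups were found in 3 of the 22, *Coq10b* and *Coq6* (lower) and *Coq10a* (higher), beside 4.12% of all probes. *Cycs*, which encodes cytochrome *c*, had -0.13 (standard error 0.28). Of 22 regulators of the chain 8 were higher and 14 lower, and the lowest p was that of *Ppargc1a*, a coactivator of mitochondrial biogenesis, at -0.47 (standard error 0.31; -0.80 without β-CB1R-/- replicate 1 and -0.18 without β-CB1R-/- replicate 3). *Nrf1* and *Tfam*, which act on nuclear promoters and on mitochondrial DNA, had 0.015 (standard error 0.23) and -0.049 (standard error 0.18). *Ucp2*, the uncoupling protein known in beta cells, had 0.39 (standard error 0.24; 0.25 without β-CB1R-/- replicate 2 and 0.59 without β-CB1R-/- replicate 1). The 19 TCA cycle genes other than succinate dehydrogenase were 7 higher and 12 lower, with none at an unadjusted p under 0.05, and the mitochondrial ribosome was 33 higher and 45 lower. The cytosolic ribosome was 78 higher and 2 lower, with none at an unadjusted p under 0.05. The lowest p-values of the ribosome lists were those of *Mrpl21* (limma unadjusted p = 0.0618), which was well above background on 3 of 4 β-CB1R+/+ and 1 of 4 β-CB1R-/- arrays and is given no fold, and of *Rpl10l*, with -0.52 (standard error 0.33, limma unadjusted p = 0.157). None of the mitochondrially encoded subunits was matched to a probe, and they were not analysed here.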

How the data were processed

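Scanner output of 8 one-colour Agilent arrays was used. Its intensity values, deposited by the authors, come from Feature Extraction 11.5.1.1, which corrects background and trends inside an array and leaves differences between arrays in place. A second table that the authors deposited holds a score per spot, and these scores equal the Z scores of log10 intensity of an array to within 0.00503. Here log2 intensities of 59305 non-control spots were shifted so that the 75th percentile of the array was 0. Irregular spots were dropped, remaining spots averaged per probe, and repeat arrays averaged per mouse. No spot was saturated. A probe entered the limma 3.58.1 fit (R 4.3.3) when 3 or more of the 7 mice were above background, and two-sided p-values were adjusted by Benjamini-Hochberg over all 39160 probes. Exact permutation tests used all 35 splits of the mice. The labels number the replicates and do not say that each is a separate mouse, as they are read here, so the spread measured is that between these samples. In the limma p-values, standard errors and intervals this spread is drawn towards that of all probes compared. *Ndufa2*, with an SD within genotype of 0.041, thus had a standard error of 0.16. RefSeq symbols were found by accession for 28026 probes. Probe sequences are not in the files used here, and cross-hybridisation to pseudogenes or relatives was not examined.

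Members and lists were chosen with earlier results of these data known. Named genes were, per complex, the 3 lowest p-values, all of complex II, genes with separate groups, tissue isoforms, the 5 largest SDs and, in each related list, the lowest p. Of these, 2 genes are not reported here. The genes *Ndufa1*, *Ndufa2*, *Ndufa7*, *Ndufa9*, *Ndufa11*, *Ndufs6*, *Ndufb11*, *Uqcrc1*, *Atp5b*, *Atp5c1*, *Atp5g2*, *Cox7a2l*, *Coq6*, *Coq10a*, *Cycs*, *Nrf1* and *Tfam* were added after their values were seen. The fit was tested on simulated data. Alternatives were a normexp correction, quantile normalisation, Z scores, the authors' score table, other filters, either repeat array alone, the mouse as a random block, a replicate block, a variance trend, the methods' t test, acinar and immediate-early covariates, the mean of the probes of a gene, each mouse left out, and 2 chosen after the data were seen (edge spots left out, and scaling to the median of the members).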

Additional observations from a re-analysis of the deposited data

Results flagged for a closer look

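In 12 of the 85 respiratory chain genes compared, 1 of the 4 β-CB1R+/+ mice stood far from the other 3 (a gap to the nearest mouse that, as a share of the group's range, exceeds Dixon's 95% critical value). Chance alone gives about 1 in 20 groups. The group of 3 β-CB1R-/- mice is too small for this comparison. The values that follow are log2 intensities relative to the 75th percentile.

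In complex I, β-CB1R+/+ replicate 2 was low for *Ndufa7* (4.00 against 5.16 to 5.36 in the other 3 mice), *Ndufv2* (2.82 against 4.11 to 4.35), *Ndufa3* (5.12 against 5.37 to 5.40) and *Ndufa13* (6.71 against 6.81), and replicate 1 was low for *Ndufs6* (5.52 against 6.00 to 6.04). *Ndufs8* was high in replicate 4, at 2.23 against 2.08. In complex II, *Sdha* was high in replicate 2, at 4.87 against 4.65 to 4.68. In complex III, *Uqcrfs1*, the Rieske iron-sulphur protein, was low in replicate 3, at 3.95 against 4.23 to 4.27. In complex V, replicate 2 was low for *Atp5g1* (2.33 against 6.00 to 6.37), *Atp5g3* (3.54 against 6.00 to 6.21) and *Atp5j2* (5.69 against 5.90 to 5.92), and *Atp5j* was high in replicate 4, at 4.96 against 4.88 to 4.89.

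Of the 12 values, 8 lay within 0.5 of the median of the other 3 mice. The 5 values of *Ndufa7*, *Ndufs6*, *Ndufv2*, *Atp5g1* and *Atp5g3* were read in the edge columns of their arrays.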

How the results depend on the processing

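No respiratory chain gene had a limma adjusted p under 0.05 under any alternative. The median log2 fold change over the chain, 0.037, ran from 0.0025 to 0.044 over the planned settings that used all mice without a replicate block, and was -0.00034 when arrays were scaled to the median of the chain itself. With a mouse left out it ran from -0.020 to 0.074, complex I from -0.020 to 0.081, and complex V from -0.086 to 0.073, each lowest without β-CB1R-/- replicate 1 and highest without β-CB1R-/- replicate 2. Genes at an unadjusted p under 0.05 numbered 0 to 1 with a mouse left out, the 1 being *Cox6a2* without β-CB1R-/- replicate 3. The methods' t test called 1 gene of the chain unadjusted, *Uqcrc2* (-0.28, exact permutation p = 0.0286), together with *Tmem126b* (0.33), *Uqcc3* (0.25), *Cnr1* (-1.97) and 1412 of all probes, and 0 probes after Benjamini-Hochberg adjustment.

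Over all probes, the 43 past the threshold became 23 with no filter, 24 when every array had to be above background, 23 after adding the acinar covariate and 17 with the immediate-early covariate. Leaving out a mouse gave 0 (without β-CB1R-/- replicate 2) to 42 probes (without β-CB1R-/- replicate 1), with 22, 15, 5 and 19 without β-CB1R+/+ replicates 1 to 4 and 5 without β-CB1R-/- replicate 3. With a replicate block it was 0 probes, with 1714 at an unadjusted p under 0.05. Deviations of mice with the same number correlated at 0.42, -0.27 and -0.062, so the numbers were not taken as pairs. The replicate block turned *Cox6b2* to 0.017 and *Nrf1* to -0.016, and gave a median over the chain of 0.045. β-CB1R+/+ replicate 4 has no partner and adds nothing to that contrast.

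Several genes changed sign. *Cox7a2* was -0.078 under normexp, -0.030 under Z scores, -0.040 in the authors' scores, -0.015 with the first repeat array alone and -0.030 scaled to the chain. *Cox7b* was -0.016 under normexp, -0.0040 under quantile normalisation, -0.000656 under Z scores, -0.0075 in the authors' scores and -0.00846 with the acinar covariate. *Cox6a1* was -0.17 under quantile normalisation, -0.026 under Z scores, -0.027 in the authors' scores, -0.014 with the acinar covariate and -0.00176 scaled to the chain. Quantile normalisation also gave -0.000430 for *Cox4i1*, -0.045 for *Atp5g2* and -0.039 for *Ndufb11*. Normexp gave -0.028 for *Tmem70* and -0.047 for *Nrf1*, which was -0.022 scaled to the chain. Without the edge spots *Uqcr10* was -0.015, *Cox5b* -0.016, *Atp5g1* -0.13, *Ndufa1* 0.11 (in place of -0.15), *Ndufa9* -0.077 (0.060) and *Ndufs6* -0.049 (0.076). With a mouse left out the ranges that crossed 0 were -0.13 to 1.21 for *Atp5g1*, -0.016 to 0.54 for *Cox5b*, -0.015 to 0.36 for *Uqcr10*, -0.089 to 0.11 for *Cox6a1*, -0.20 to 0.093 for *Cox6b2*, -0.035 to 0.078 for *Cox7a2*, -0.075 to 0.13 for *Cox7b*, -0.16 to 0.018 for *Cox8a*, -0.28 to 0.087 for *Cycs*, -0.098 to 0.14 for *Nrf1*, -0.12 to 0.0099 for *Sdha*, -0.11 to 0.23 for *Sdhb*, -0.12 to 0.050 for *Tfam*, -0.027 to 0.098 for *Tmem70* and -0.046 to 0.23 for *Uqcrc1*. Of 45 single genes followed, 25 more kept their sign and moved by over 1.5 times in at least 1 such fit. The cause of these changes was not tested. Each alternative kept the probe chosen for a gene, and Z scores were put on the log2 scale by the mean SD of the arrays. The alternative with gene names of the array files was not run. With 4 mice against 3 and 1 slide, differences within the intervals given remain possible, and the size that could be detected was not tested. Signal over background did not limit the 85 genes, each well above it on all 8 arrays.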
